A study of Mus musculus with 2 samples.

Results

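Expression of 36 genes that act in S phase, when a cell copies its DNA, was examined in small B16F10 melanomas grown in hosts with and without Atf4. The 36 genes are a given list of replication genes and were not picked by a rule on their expression. Earlier results of these data were known when the list was set. All 36 were found once each among the 31053 genes of the count tables. They were ordered by what they do. Of the 36, 8 genes license origins (Mcm2 to Mcm7, Cdt1, Cdc6) and 3 activate the helicase (Cdc45, Gins1, Gins2). Another 6 make or clamp new strands (Pola1, Prim1, Pcna, Rfc2, Fen1, Dscc1) and 3 supply nucleotides (Rrm1, Rrm2, Tyms). A further 6 copy chromatin (Chaf1a, Chaf1b, Nasp, Slbp, Uhrf1, Hells) and 6 guard the fork or repair DNA (Tipin, Clspn, Ung, Exo1, Blm, Dtl). The last 4 control entry into the cycle (Ccne1, Ccne2, E2f1, E2f8). These 4 are called cell cycle drivers below, although E2f8 is a repressor. Single-cell RNA of 1 library was measured for each host genotype, and each library pooled 2 tumours. The control hosts were Atf4 WT/WT (WT) and the others Atf4 Δ/Δ (KO, spelled Atf4D/D in the labels). Per the labels, both pools came from male and female mice aged 11 weeks. Both genotypes carried the ubiquitous Rosa26::CreERT2 allele and received tamoxifen, which deletes the floxed Atf4 alleles of the KO hosts. B16F10 is a mouse melanoma line injected under the skin, and its cells kept their own Atf4 in both hosts, so only host cells differed in the gene.

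Before S phase, the Mcm2 to Mcm7 ring is loaded onto origins by Cdc6 and Cdt1, and Cdc45 with the GINS subunits turns it into the moving helicase. The sliding clamp Pcna, loaded by the replication factor C complex, holds the polymerases on the strand while ribonucleotide reductase (Rrm1 and Rrm2) and thymidylate synthase (Tyms) make the nucleotides. Most of these genes are transcribed by E2F factors as cells leave G1, whereas genes of mitosis are switched on later, often through CHR and CCAAT promoter elements.

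The WT library held 6304 barcodes and 38417113 UMIs (unique molecular identifiers, 1 for each RNA molecule counted), and the KO library held 5474 barcodes and 38290024 UMIs. After the filters on genes and mitochondrial RNA, 3861 WT and 3557 KO cells remained, and 10 barcodes occurred in both libraries. Cells were assigned by marker genes that exclude the 36, and in the 4 gates compared here every marker of a class was found in its own gate in both libraries. The melanoma gate held 1814 WT and 1844 KO cells, the macrophage gate 923 and 731, the fibroblast gate 197 and 234, and the endothelial gate 72 and 26. Atf4 itself was at 177 CPM (UMIs scaled to the same total in every gate and library) in WT macrophages and 39.6 CPM in KO macrophages, at 260 and 39.4 CPM in fibroblasts, and at 227 and 202 CPM in melanoma cells. The endothelial values were 217 and 0 CPM. Atf4 RNA was thus lower in all 3 KO host gates, and melanoma cells carried it in both hosts. Although the labels give both sexes for both pools, the WT host gates held no UMI of the Y-linked genes, whereas the KO host gates held 10 to 132. Xist, the RNA of the inactive X chromosome, was at 672 CPM among WT and 101 CPM among KO macrophages. As there is 1 library for each genotype, no test between genotypes was possible, and the intervals given for WT against KO cover counting error only.

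Promoter windows from RefSeq (GRCm38.p6, 250 bases before to 50 bases after the gene start) were found for 28 of the 36 genes, 31 windows in all. E2F words were searched as TTTCGCGC, TTTGGCGC, TTTCCCGC and TTTGCCGC, CHR words as TTTGAA and TTCGAA, and the CCAAT box as CCAAT, each on both strands. An E2F word was present in 11 of 28 genes (39.3%), against 5.07% of 8066 genes with a window and at least 100 UMIs in the melanoma gate and 2.60% of all 27025 genes with a window. It was found in 6 of the 7 licensing genes that have a window, all but Mcm2. A CHR word was present in 6 of 28 genes (21.4%), against 16.2% of the genes with UMIs and 21.7% of all, and a CCAAT box in 19 (67.9%), against 43.4% and 41.1%. For comparison, 1 of 30 mitosis genes had an E2F word and 23 of 30 had a CHR word. These are descriptions of letters in a window, and no binding was measured.

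The windows of the 4 genes with the most UMIs in the melanoma gate, Rrm2 (7906 UMIs), Nasp (7625), Mcm3 (6771) and Rrm1 (6461), are shown together with that of Mcm6, which was chosen after the search because its window held the most E2F words. Each is written 5′ to 3′ on the strand of the gene, and capitals mark every E2F, CHR and CCAAT word. The positions are chr12:24708004-24708303 (plus strand) for Rrm2, chr4:116627902-116628201 (minus) for Nasp, chr1:20820263-20820562 (minus) for Mcm3, chr7:102441445-102441744 (plus) for Rrm1 and chr1:128359656-128359955 (minus) for Mcm6.
Rrm2: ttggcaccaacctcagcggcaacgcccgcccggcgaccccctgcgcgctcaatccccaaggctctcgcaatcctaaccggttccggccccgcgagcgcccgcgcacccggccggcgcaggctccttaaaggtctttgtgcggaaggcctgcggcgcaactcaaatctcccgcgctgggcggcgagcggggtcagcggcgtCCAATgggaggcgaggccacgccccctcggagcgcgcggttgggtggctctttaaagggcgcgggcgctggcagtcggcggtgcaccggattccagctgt
Nasp: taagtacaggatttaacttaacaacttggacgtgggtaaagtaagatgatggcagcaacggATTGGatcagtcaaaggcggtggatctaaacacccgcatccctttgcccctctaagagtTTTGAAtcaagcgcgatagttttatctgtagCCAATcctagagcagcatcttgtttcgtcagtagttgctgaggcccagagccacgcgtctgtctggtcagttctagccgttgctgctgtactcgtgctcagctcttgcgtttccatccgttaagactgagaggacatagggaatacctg
Mcm3: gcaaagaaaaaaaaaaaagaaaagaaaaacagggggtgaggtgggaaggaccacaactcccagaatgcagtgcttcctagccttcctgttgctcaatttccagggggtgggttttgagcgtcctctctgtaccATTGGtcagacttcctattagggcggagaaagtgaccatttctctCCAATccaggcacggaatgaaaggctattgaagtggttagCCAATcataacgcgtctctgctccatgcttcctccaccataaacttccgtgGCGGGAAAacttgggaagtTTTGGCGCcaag
Rrm1: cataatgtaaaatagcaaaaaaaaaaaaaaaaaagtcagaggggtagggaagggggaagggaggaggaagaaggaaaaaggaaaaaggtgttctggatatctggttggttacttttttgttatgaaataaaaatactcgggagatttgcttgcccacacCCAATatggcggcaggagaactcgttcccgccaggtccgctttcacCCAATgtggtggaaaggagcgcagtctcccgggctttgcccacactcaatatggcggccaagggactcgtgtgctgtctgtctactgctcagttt
Mcm6: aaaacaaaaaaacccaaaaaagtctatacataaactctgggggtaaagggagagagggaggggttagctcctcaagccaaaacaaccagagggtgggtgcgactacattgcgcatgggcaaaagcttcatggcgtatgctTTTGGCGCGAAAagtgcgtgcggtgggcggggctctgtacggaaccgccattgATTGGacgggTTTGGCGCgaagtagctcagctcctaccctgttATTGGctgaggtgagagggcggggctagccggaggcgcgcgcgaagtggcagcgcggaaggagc
In Mcm6, TTTGGCGC begins 110 bases before the start and overlaps GCGCGAAA, which begins 106 bases before it, and a further TTTGGCGC begins 47 bases before the start. In Mcm3 both E2F words lie after the start, at 19 and 38 bases, and 3 CCAAT boxes lie before it. Rrm2, Nasp and Rrm1 held no exact E2F word in these windows but had 1, 2 and 2 CCAAT boxes, and Nasp had 1 CHR word 130 bases before the start.

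Cells that expressed the replication genes were most frequent in the melanoma gate. Each cell was thinned to 2000 UMIs, so that depth could not set the count, and a cell with at least 3 UMIs over the 36 genes was called replication-positive. In the melanoma gate 72.1% of 1678 WT cells (95% exact interval 69.8 to 74.2) and 58.0% of 1728 KO cells (55.6 to 60.3) were positive. In the endothelial gate the shares were 54.9% of 51 WT cells (40.3 to 68.9) and 22.2% of 18 KO cells (6.41 to 47.6). In the macrophage gate they were 28.1% of 537 (24.4 to 32.1) and 22.3% of 422 cells (18.4 to 26.6), and in the fibroblast gate 22.9% of 166 (16.7 to 30.04) and 16.4% of 195 cells (11.5 to 22.4). The order of the gates was thus melanoma, endothelial, macrophage and fibroblast in the WT library, with overlapping intervals for the last pair. In the KO library the 3 host gates overlapped one another. Without thinning, where deeper cells gain UMIs, the shares were 90.8% and 87.9% in melanoma and 30.8% and 24.4% in macrophage cells.

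**Figure D1:**
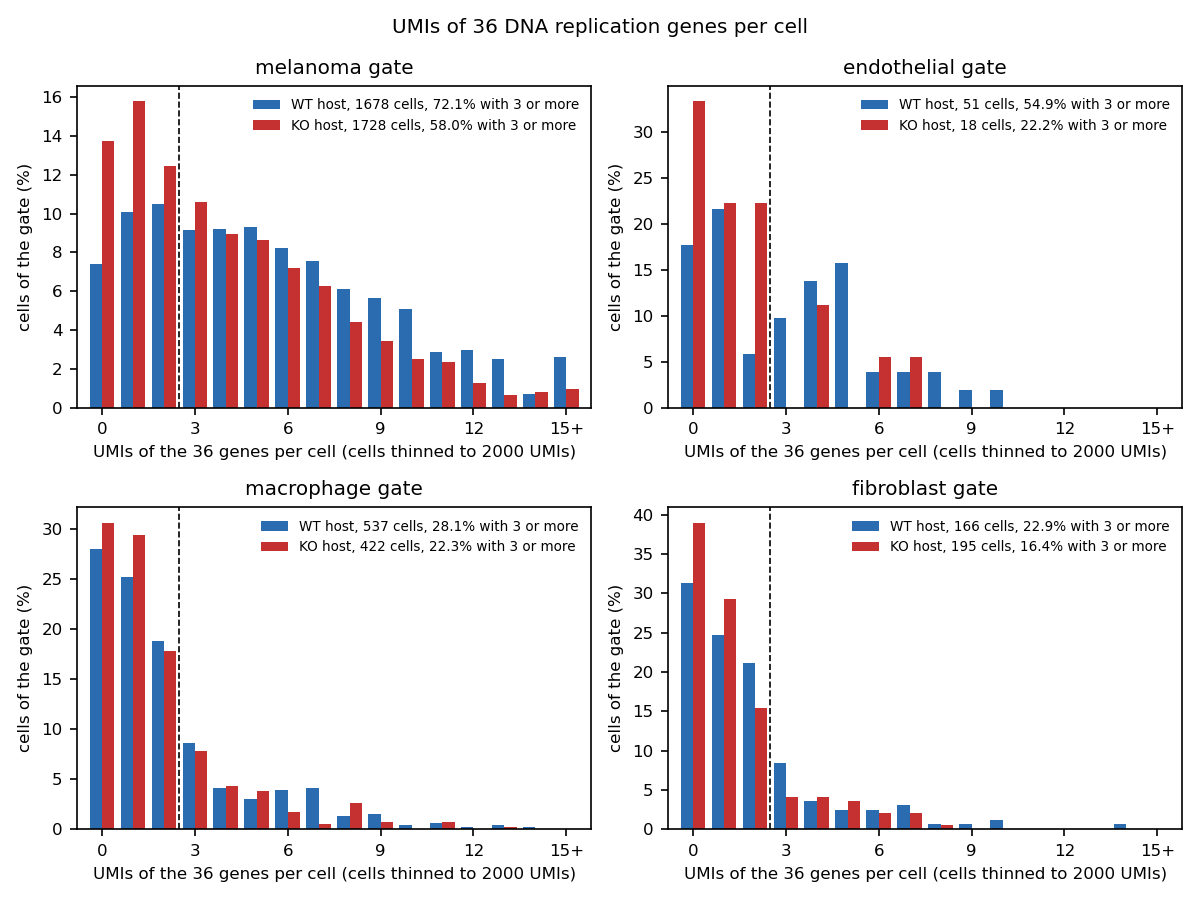
Share of cells of each gate (y axis, percent) with a given number of UMIs over the 36 replication genes (x axis) after each cell was thinned to 2000 UMIs, for the WT library (blue) and the KO library (red), with the positive range to the right of the dashed line. Melanoma cells spread broadly to 15 or more UMIs and only 7.39% of WT and 13.8% of KO cells had none, whereas most macrophage and fibroblast cells had 0 to 2.

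Per-cell counts were wider than a single Poisson rate would give, with a variance over mean of 2.88 in WT and 3.06 in KO melanoma cells and of 2.20 to 2.94 in the macrophage and fibroblast gates. The mean was 5.47 UMIs of the 36 genes in WT and 4.06 in KO melanoma cells, against 2.15 and 1.76 in macrophage cells. Free RNA can add to such shares, and monocytes were therefore counted beside them. The summed mitosis genes were at 481 and 349 CPM in monocytes (WT, KO), against 1422 and 1019 CPM in macrophages. At 1000 UMIs per cell, which shallow cells can reach, 2 of 131 WT monocytes (1.53%) and 2 of 71 KO monocytes (2.82%) were positive. The shares were 46.4% and 33.7% of melanoma, 10.4% and 7.31% of macrophage and 12.2% and 6.39% of fibroblast cells. In the endothelial gate they were 20.3% of 69 WT and 13.0% of 23 KO cells. The median raw depth of the monocytes was 1071 and 1044 UMIs and that of the macrophages 2250 and 2252. The KO intervals of fibroblasts (3.54 to 10.5), macrophages (5.46 to 9.55) and endothelial cells (2.78 to 33.6) overlapped that of the KO monocytes (0.343 to 9.81). At that depth these KO shares were thus not separated from the KO monocytes, of which only 71 were counted. The WT intervals of fibroblasts (7.87 to 17.7), macrophages (8.46 to 12.6) and endothelial cells (11.6 to 31.7) lay above that of the WT monocytes (0.185 to 5.41). Melanoma genes that no gate used (Pmel, Tyr, Gpr143, Slc24a5) were at 2.78% to 6.59% of their melanoma level in the host gates, while the 36 genes were at 33.6% to 48.2%. The 7 melanoma gate markers were at 1329 and 1075 CPM in monocytes (WT, KO) and at 731 and 597 in macrophages. They were at 491 and 536 CPM in fibroblasts and 394 and 299 in endothelial cells. The monocytes thus held more melanoma RNA than the host gates set beside them. How much of the host shares came from free RNA was not tested.

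Summed over the gate, the 36 genes took 2919 CPM in WT melanoma cells, 1408 in endothelial, 1096 in macrophage, 980 in fibroblast and 636 in monocyte cells. In the KO library the levels were 2213, 838, 830, 790 and 500 CPM. A summed level cannot tell fewer cells in S phase from less RNA in each.

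Melanoma cells were compared with each host gate over both libraries, to ask which members of the replication machinery carry the difference. Against macrophages, 30 of the 36 genes were higher in melanoma cells and none was lower by edgeR's quasi-likelihood test (adjusted p under 0.05), where 30.9% of all 12194 genes tested were higher and 30.7% lower. Against fibroblasts 31 were higher (22.4% of all 12362 genes) and none was lower (23.1% of all). Against endothelial cells 21 were higher (13.6% of all 11597 genes) and none was lower (12.8% of all). The median fitted log2 fold of the 36 was 1.20, 1.47 and 1.25, against 0.09, 0.10 and 0.27 for all genes tested. Of the 36, 20 were higher in all 3 comparisons and 4 in none: Gins2, E2f1, E2f8 and Ccne2. The shares of all genes higher in all 3 or in none were not counted. With 4 sums and a library term, 1 residual degree of freedom remained for each gene, and the libraries also differed in genotype. DESeq2 called 24, 19 and 5 of the 36.

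**Figure D2:**
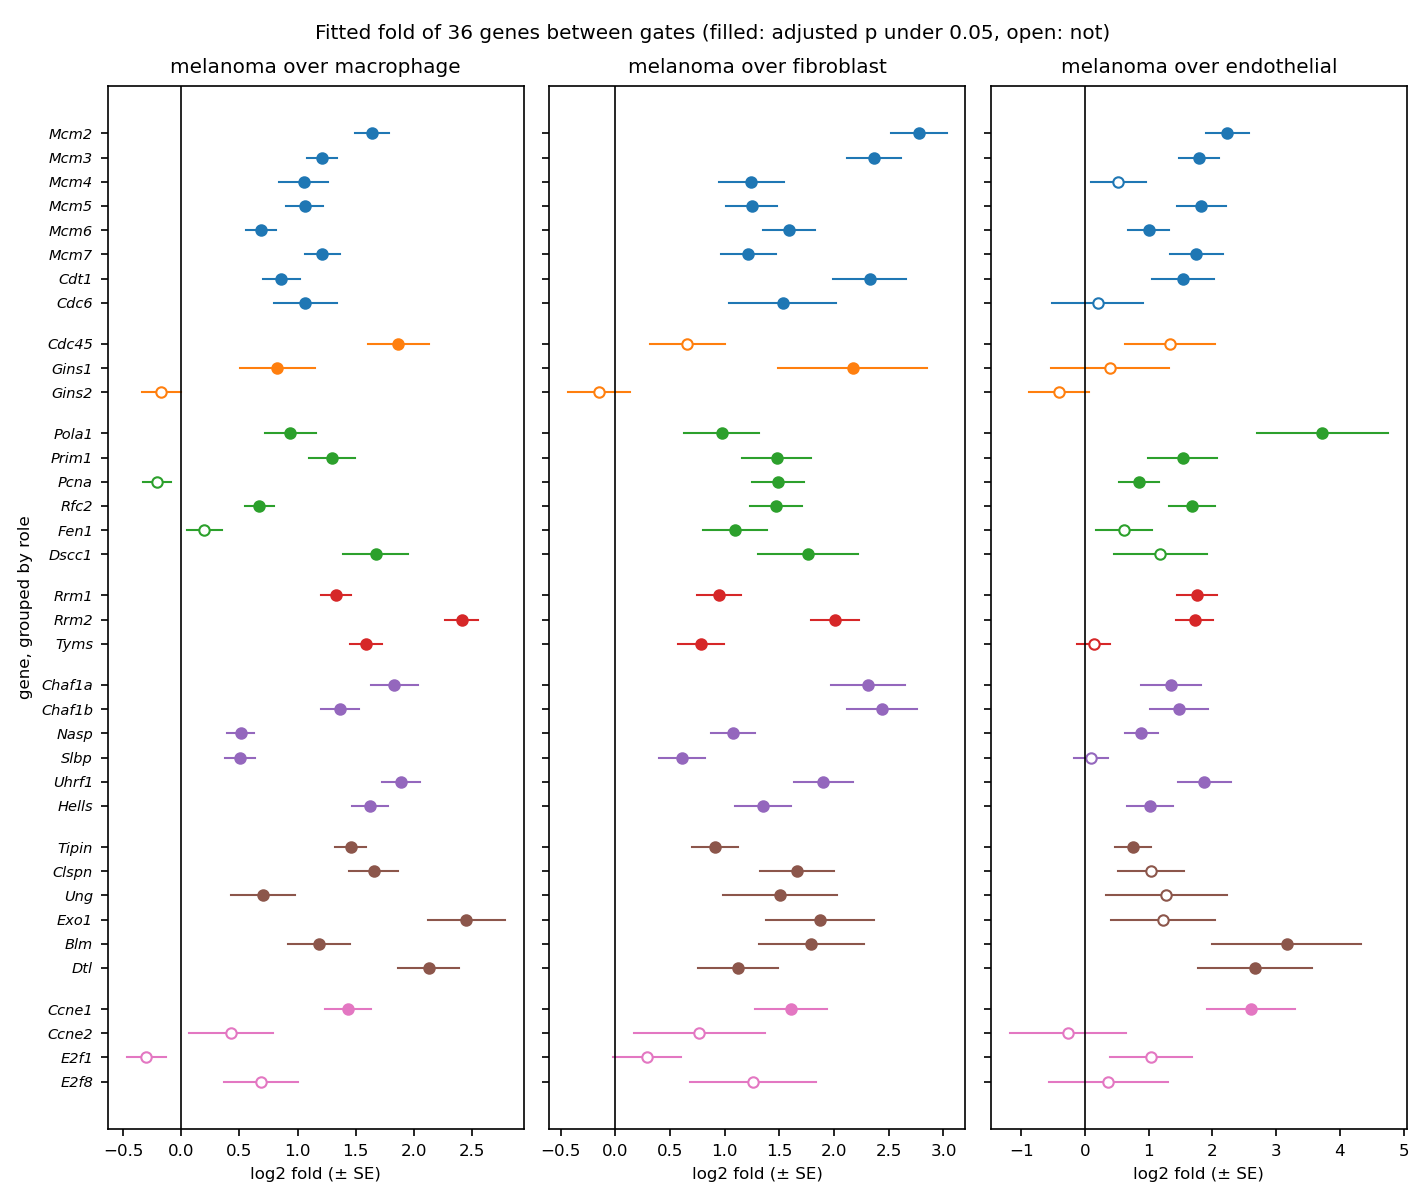
Fitted log2 fold of melanoma over macrophage, fibroblast and endothelial gates (x axes, points with standard error) for each of the 36 genes (rows, coloured by role). Filled points passed an adjusted p of 0.05 and open points did not. The licensing genes lay right of 0 in each panel, while Gins2 lay left of 0 in all 3 and Pcna left of 0 against macrophages.

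All 8 licensing genes were higher in melanoma cells than in macrophages and fibroblasts, and 6 of 8 than in endothelial cells. Mcm2, a subunit of the helicase ring, reached 180 CPM in melanoma cells of WT and 126 CPM in those of KO hosts, against 22.3 and 17.1 CPM in fibroblasts and 50.6 and 25.7 CPM in macrophages. Its log2 fold over fibroblasts was 2.77 ± 0.25 (SE, adjusted p = 3.55e-14 by edgeR), the largest of the 36 there, followed by Chaf1b (2.44 ± 0.32), a subunit of the histone-depositing chromatin assembly factor, and Mcm3 (2.36 ± 0.24). Within the ring the folds were uneven: over macrophages they ran from 0.68 ± 0.13 for Mcm6 to 1.64 ± 0.15 for Mcm2, with Mcm4 at 1.05, Mcm5 at 1.06, Mcm3 at 1.21 and Mcm7 at 1.21. Against endothelial cells Mcm4 (0.52 ± 0.43) and Cdc6 (0.20 ± 0.72) did not pass, and in the KO library that gate held no UMI of Mcm2, Mcm4 or Mcm5.

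Pcna, Fen1, Gins2 and 3 of the 4 drivers were not called against macrophages. Pcna was at 122 and 87.0 CPM in melanoma cells and at 105.4 and 80.4 CPM in macrophages (WT, KO), so its levels nearly met. Its fitted log2 fold was -0.21 ± 0.12 (adjusted p = 0.15 by edgeR) on the TMM scale and 0.21 and 0.11 on the CPM scale, so its direction turned with the scaling, as it did for Gins2 and on average for E2f1. Over fibroblasts Pcna was higher in melanoma cells (1.49 ± 0.24, adjusted p = 3.96e-07 by edgeR), as it was over endothelial cells (0.85 ± 0.31, adjusted p = 0.027). The flap nuclease Fen1 was at 54.1 and 39.5 CPM in melanoma and 37.3 and 25.7 CPM in macrophage cells, with a fold of 0.20 ± 0.15 that did not pass. E2f1, the transcription factor, was at 31.9 and 29.0 CPM in melanoma cells and 32.1 and 25.7 CPM in macrophages, with a fold of -0.30 ± 0.17 that did not pass. Cyclin E1 (Ccne1), which activates Cdk2 for S-phase entry, was higher in melanoma cells in all 3 comparisons (1.43, 1.61 and 2.61), the last resting on 2 WT and 1 KO UMIs in the endothelial gate, and Ccne2 in none (0.43, 0.77 and -0.27). E2f8, a repressor of the E2F family, had folds of 0.68, 1.26 and 0.37 that did not pass.

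The 3 largest folds over macrophages were those of Exo1, Rrm2 and Dtl. Rrm2, the regulated subunit of ribonucleotide reductase, was at 231 and 164 CPM in melanoma cells and 33.8 and 23.4 CPM in macrophages (log2 fold 2.41 ± 0.14, adjusted p = 2.48e-08 by edgeR). The nuclease Exo1 was at 24.7 and 15.03 against 3.86 and 1.67 CPM (2.45 ± 0.33) and Dtl, which targets Cdt1 for destruction, at 33.5 and 22.7 against 5.998 and 3.91 CPM (2.13 ± 0.26). In macrophages Exo1 rested on only 9 WT and 3 KO UMIs and Dtl on 14 and 7. Rrm1, the catalytic partner of Rrm2, differed less (1.33 ± 0.13). The histone messenger binder Slbp had the smallest fold that passed against fibroblasts (0.61 ± 0.21), where Gins2 (-0.15 ± 0.28) and E2f1 (0.29 ± 0.31) did not pass. Against endothelial cells Gins2 (-0.40 ± 0.47) and Slbp (0.09 ± 0.27) did not pass either. The 3 largest fitted folds there, of Pola1, Blm and Dtl, rested on 1, 1 and 2 UMIs in the WT and none in the KO endothelial gate, and their size is therefore not given.

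Of 45 other replication genes, which include the remaining polymerase, origin and single-strand-binding subunits, 34 were higher in melanoma cells than in macrophages, 32 than in fibroblasts and 12 than in endothelial cells, with none lower. Of 35 mitosis genes the counts were 33, 27 and 13.

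Melanoma cells from KO hosts had lower levels of the replication genes than melanoma cells from WT hosts. The log2 ratio of the positive shares given above, KO over WT, was -0.31 (interval -0.39 to -0.24), and the summed level was 2919 CPM in WT and 2213 CPM in KO, a log2 ratio of -0.40 (-0.42 to -0.38). All 36 genes were below 0, and 12 were lower by at least 0.5, against 4.41% of all 10166 genes with at least 100 UMIs. None was higher by 0.5, against 7.42% of all genes. The median log2 ratio was -0.39 for the 36 and 0.01 for all genes. For 34 genes the counting interval lay below 0, and Gins1 and E2f1 were the exceptions. The shares of all genes below 0, or with an interval below 0, were not counted. The 45 other replication genes were lower as a sum by a similar amount (-0.37), with 41 below 0 and 10 past -0.5. Furthest from 0 were Rpa3 (-1.36), a subunit of the single-strand-binding complex, and the repair gene Brca1 (-1.15). The mitosis list was at -0.32. The 4 melanoma genes outside the gates were also lower in KO (3302 and 2271 CPM, -0.54), and more KO than WT cells lay close above the melanoma cut (268 and 84). With the cut raised to 2 times its value the sum was at -0.40 and 9 genes were past -0.5. The share ratio moved with its threshold, from -0.17 at 4000 UMIs per cell to -0.48 with at least 5 UMIs of the list. The tumours of each host were pooled, so differences between tumours cannot be told apart from genotype.

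**Figure D3:**
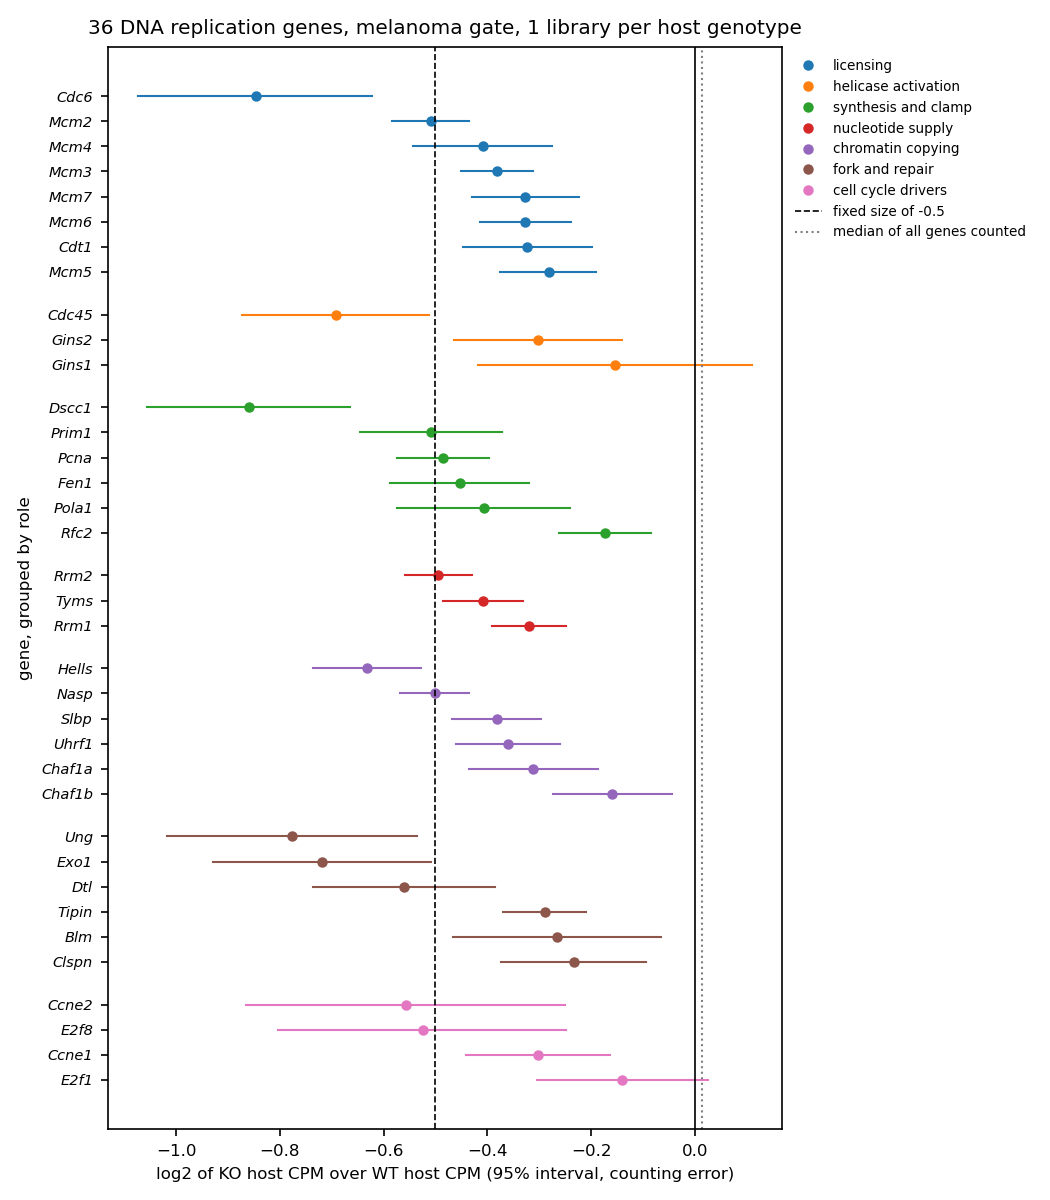
Log2 ratio of KO over WT CPM in the melanoma gate (x axis, points with 95% counting intervals) for each of the 36 genes, grouped and coloured by role. All 36 points lay left of 0, from -0.86 for Dscc1 to -0.14 for E2f1, and 12 lay at or past the dashed line at -0.5.

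No role stood apart as a sum: the 7 role sums lay between -0.42 (helicase activation and chromatin copying) and -0.30 (cell cycle drivers). Single genes spread more widely. Among the licensing genes Cdc6, which loads the ring, was at 22.9 CPM in WT and 12.8 in KO (-0.85, interval -1.07 to -0.62), and Mcm2 was at -0.51. The rest of the ring lay nearer 0, with Mcm4 at -0.41, Mcm3 at -0.38, Mcm6 at -0.33, Mcm7 at -0.33 and Mcm5 at -0.28. Cdc45 was at 33.2 and 20.6 CPM (-0.69, -0.87 to -0.51), while its partners Gins1 (-0.15) and Gins2 (-0.30) were closer to 0.

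Among the strand-making genes Dscc1, part of the alternative clamp loader that establishes cohesion, was at 30.5 CPM in WT and 16.8 in KO (-0.86, -1.06 to -0.66). The primase subunit Prim1 was at -0.51, Pcna at -0.49 and Rfc2 at -0.17. The nucleotide gene with the most UMIs, Rrm2, was at 231 and 164 CPM (-0.49), just short of the size used. Of the chromatin genes, Hells, a remodelling helicase (95.4 and 61.6 CPM, -0.63), and the histone chaperone Nasp (223 and 157 CPM, -0.50) were past -0.5, whereas Chaf1b was at -0.16. Of the repair genes, the uracil glycosylase Ung (19.5 and 11.4 CPM, -0.78), Exo1 (24.7 and 15.03 CPM, -0.72) and Dtl (33.5 and 22.7 CPM, -0.56) were past -0.5. Of the drivers Ccne2 (11.0 and 7.51 CPM, -0.56) and E2f8 (13.3 and 9.23 CPM, -0.52) were past it, and Ccne1 (-0.30) and E2f1 (-0.14) were not. For 6 of the 12, namely Cdc6, Cdc45, Dscc1, Hells, Ung and Exo1, the whole counting interval lay past -0.5.

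By raw depth, the KO share lay below the WT share in each of 4 ranges. Of melanoma cells with 10000 to 20000 raw UMIs, 84.3% of 1099 WT (82.1 to 86.4) and 69.3% of 1038 KO cells (66.4 to 72.1) were positive once thinned. Above 20000 UMIs the shares were 89.0% of 73 and 66.2% of 71 cells. Between 5000 and 10000 UMIs they were 43.8% of 450 and 39.7% of 554 cells, and between 2000 and 5000 they were 51.3% of 76 and 38.1% of 84 cells, both with overlapping intervals. The positive share was thus higher above than below 10000 raw UMIs in both hosts, although every cell was counted at the same depth. Whether the gap between hosts changes with depth was not tested.

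**Figure D4:**
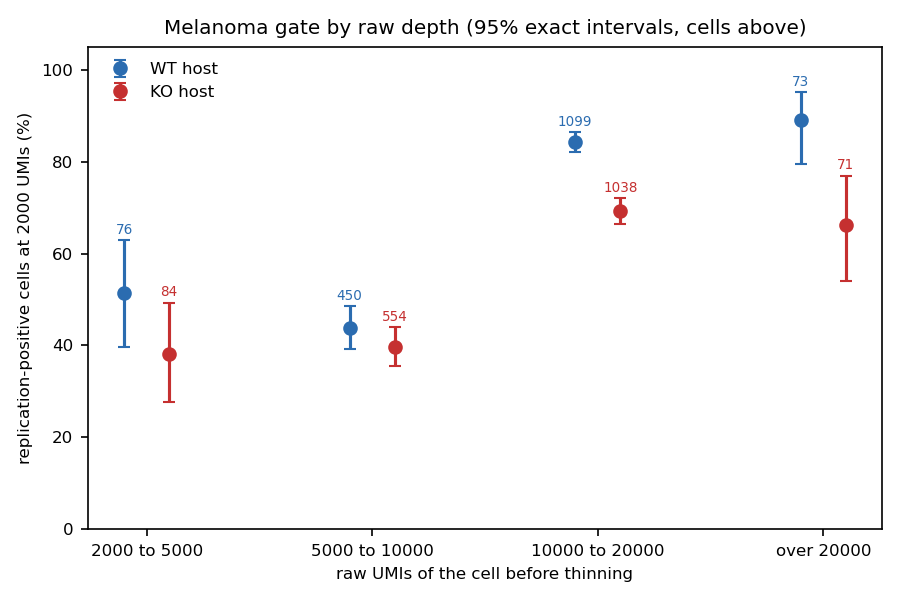
Share of melanoma cells that were replication-positive at 2000 UMIs (y axis, percent, with 95% exact intervals) by their raw UMI count (x axis), for WT (blue) and KO (red) hosts, with the number of cells above each point and no upper limit on genes per cell. The WT points lay above the KO points in all 4 bins, and the intervals did not overlap in the pair of bins over 10000 UMIs.

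Most replication-positive melanoma cells also carried mitosis RNA. A cell with at least 3 UMIs over the 35 mitosis genes was called mitosis-positive. Both were found in 57.6% of WT cells (55.2 to 60.0) and 43.9% of KO cells (41.5 to 46.2). Replication alone was found in 14.4% and 14.1%, mitosis alone in 10.6% and 12.8%, and neither in 17.3% and 29.2%. The genotypes therefore differed in the cells with both and with neither, and hardly in those with replication RNA alone. Positive for either list were 82.7% and 70.8% of melanoma, 64.7% and 33.3% of endothelial, 40.4% and 27.7% of fibroblast and 39.3% and 29.9% of macrophage cells.

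In the host gates the replication genes were also lower in KO, with fewer UMIs behind each value. Macrophages had a summed level of 1096 CPM in WT and 830 in KO (-0.40, interval -0.49 to -0.31) and a share ratio of -0.34 (-0.66 to -0.01). Of the 16 members with at least 100 UMIs there, 4 were lower by 0.5, against 6.69% of all 4751 genes, and none was higher (7.3% of all). They were Mcm2 (50.6 and 25.7 CPM, -0.98), Mcm5 (45.8 and 25.1 CPM, -0.87), Fen1 (-0.54) and Rrm2 (-0.53), and Rfc2 (-0.11) and Slbp (-0.14) were nearest to 0. Of the 16 intervals, 6 lay below 0 and 10 held 0, that of Rrm2 among them, and none lay wholly past -0.5. The shares of all macrophage genes with such intervals were not counted. The macrophage mitosis sum was at -0.48.

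Fibroblasts had 980 and 790 CPM (-0.31, -0.46 to -0.16) and a share ratio of -0.48, with an interval that held 0 (-1.09 to 0.13). Of the 5 members with at least 100 UMIs, Tyms (89.2 and 53.3 CPM, -0.74) and Tipin (72.2 and 49.0 CPM, -0.56), a fork protection factor, were past -0.5, against 13.5% of all 2476 genes, and none was higher (10.4% of all). Of the 5 intervals, 1 lay below 0 and 4 held 0, that of Tipin among them. For all fibroblast genes such intervals were not counted. The fibroblast mitosis sum was at -1.09, further from 0 than the replication sum. With all members of at least 20 UMIs, 7 were lower and 5 higher by 0.5 among 24, and the share of all genes at that minimum was not counted. In the endothelial gate, with 72 and 26 cells, the summed level was 1408 and 838 CPM (-0.75, -1.10 to -0.41). Its share ratio of -1.30 (-2.60 to -0.01) was at -0.45 with a threshold of 2 UMIs and at -0.81 as the exact expectation over all thinning draws. No member had 100 UMIs there.

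Since the host pools differed in Y-linked and Xist RNA, the sums were also compared within cells split by these genes. In cells that held Xist but lacked Y-linked UMIs, the KO to WT ratio of the sum was -0.87 (-1.12 to -0.63) in macrophages (80 KO cells) and -0.53 (-0.81 to -0.26) in fibroblasts (60 KO cells). For KO cells with a Y-linked and no Xist UMI, set against the same WT cells, it was -0.28 (-0.46 to -0.11) in 110 macrophages and -0.07 (-0.28 to 0.14) in 50 fibroblasts. Both ratios therefore depended on which KO cells were taken, with intervals that did not overlap in macrophages and that overlapped slightly in fibroblasts. Only cells with a detected UMI of these genes entered, so most of the 731 KO macrophages and 234 KO fibroblasts were left out. Sex cannot be told apart from tumour, as each library pooled 2 tumours.

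Within the melanoma gate, the 36 genes were then compared between cells sorted by genes outside the list. A cell was replication-high with at least 2 UMIs over 25 other replication genes and mitosis-high with at least 2 UMIs over the mitosis list, at 2000 UMIs per cell. Replication-high were 69.2% of WT (66.9 to 71.4) and 56.8% of KO cells (54.4 to 59.1). Per 100 cells, replication-high cells held 664 UMIs of the 36 genes in WT and 561 in KO, and replication-low cells held 284 and 202. The share of high cells and the level within both classes were thus lower in KO. The log2 fold of high over low was 1.22 (1.14 to 1.31) in WT and 1.48 (1.39 to 1.56) in KO. It was above 0 for all 36 genes in both libraries, and its interval was above 0 for 34 and 35 of them. The share of all genes above 0 was not counted, so these counts do not mark the 36 out from other genes.

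Cdc45, of the active helicase, and the loader Cdc6 were among the 3 largest replication folds in both libraries, joined by E2f8 in WT and Ccne2 in KO. Cdc45 was at 8.35 and 1.74 UMIs per 100 high and low cells in WT and at 6.22 and 0.937 in KO (log2 folds 2.26 and 2.73). Cdc6 was at 5.25 and 1.35 in WT and 3.36 and 0.402 in KO (1.96 and 3.07). E2f8 had a fold of 2.53 (0.88 to 4.87) in WT and 1.41 (0.06 to 3.01) in KO, and Ccne2 of 1.003 (-0.60 to 3.03) in WT and 2.78 (0.71 to 5.93) in KO. Rfc2, a subunit of the clamp loader, had the smallest fold in both libraries (0.73 and 0.71), with 14.3 and 13.0 UMIs per 100 cells even in low cells. Tyms (0.83 and 1.14), Rrm1 (0.89 and 1.40), Slbp (0.99 and 0.75) and Ccne1 (1.18 and 0.89) were also among the smallest in one library or the other. Pcna had folds of 1.13 and 1.47, and the ring genes Mcm2 to Mcm7 ran from 1.08 (Mcm2) to 1.62 (Mcm7) in WT and from 1.32 (Mcm4) to 2.41 (Mcm5) in KO.

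Sorting by mitosis genes gave a different order. The sum was higher in mitosis-high than in mitosis-low cells by 1.14 (1.05 to 1.23) in WT and 1.34 (1.25 to 1.43) in KO. E2f8 led in both libraries, with 41 UMIs in high and 1 in low WT cells (3.62, 1.06 to 8.96) and 26 and 1 in KO cells (3.78, 1.17 to 9.14). Exo1 (1.92 and 2.29) was among the 3 largest in both, with Blm (1.96), a helicase of repair, in WT and Dscc1 (2.33) in KO. At the other end, Cdc6 was at 4.03 UMIs per 100 mitosis-high and 4.13 per 100 mitosis-low WT cells (-0.04, -0.87 to 0.87), and its KO value was 1.13 (-0.09 to 2.56). Ccne1 (0.11) and Ung (0.21) had the next smallest folds in WT, and Ccne2 (0.30), Slbp (0.58) and Ccne1 (0.59) the smallest in KO. The intervals of Slbp lay above 0 in both libraries, and those of Ung held 0 in both. Rrm2 (1.83 and 1.996), Rrm1 (1.70 and 1.87) and Mcm5 (1.69 and 1.83) were far from 0, and the other ring genes and Pcna lay between 0.64 and 1.74.

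**Figure D5:**
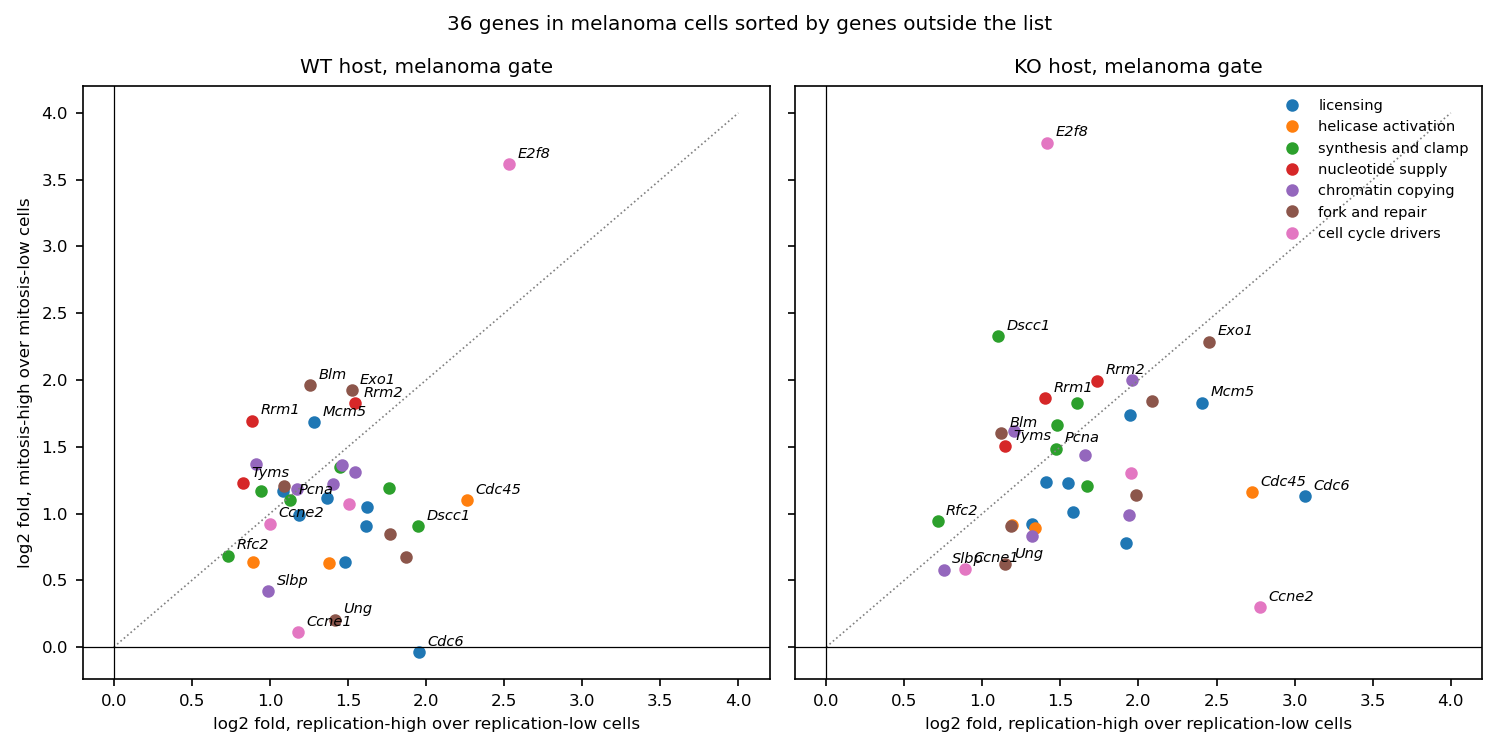
Log2 fold of each of the 36 genes between replication-high and replication-low cells (x axis) and between mitosis-high and mitosis-low cells (y axis) of the melanoma gate, WT left and KO right, coloured by role, with the dotted line at equal folds. E2f8 stood at the top in both panels, Cdc45 and Cdc6 lay to the right, and Cdc6 was at -0.04 on the y axis in WT.

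Cells high for only one of the lists separated the genes further. Replication-high, mitosis-low cells were 8.05% of WT and 9.03% of KO melanoma cells, and replication-low, mitosis-high cells were 15.8% and 17.7%. The former held 503 and 421 UMIs of the 36 genes per 100 cells and the latter 397 and 311, a log2 ratio of 0.34 (0.20 to 0.48) in WT and 0.43 (0.29 to 0.58) in KO. Cdc6 had the highest ratio among genes with UMIs on both sides, with 12 against 3 UMIs in WT (2.97, 1.08 to 5.44) and 5 against 1 in KO (3.29, 0.13 to 8.86). Cdc45 (1.71 and 1.87), Cdt1 (1.13 and 1.90) and Mcm3 (0.57 and 0.62) leaned the same way with intervals above 0 in both libraries. For Mcm3 the intervals were 0.01 to 1.12 in WT and 0.05 to 1.17 in KO. Rrm1 leaned to the mitosis-high side in WT (-0.75, -1.43 to -0.11), with a KO value of -0.31 whose interval held 0 (-0.98 to 0.32). For Nasp (-0.35 and -0.47) and Tyms (-0.20 and -0.25) the intervals held 0 in both. Cells high for both lists were 61.1% of WT and 47.7% of KO cells and had the most UMIs of the 36 genes (685 and 588 per 100 cells), and cells low for both had the fewest (166 and 126).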

How the data were processed

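UMI counts per gene and cell were used as deposited by the authors in 2 matrices, 1 for each host genotype. The submitters' processing notes name Cell Ranger 3.1.0, Seurat 3.2.1 and GRCm38. Droplet counts of this kind tag RNA ends, keep strand and drop reads that match several genes. The pseudogene Pcna-ps2 held 16 WT and 12 KO UMIs in the melanoma gate. Cdt1 overlaps the readthrough gene Gm20388 on its own strand, so its counts are less certain.

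The study's filters were applied (200 to 5000 genes per cell, mitochondrial share up to 7.5%). Gates required marker UMIs per 10000 of at least 40 (melanoma), 30 (fibroblast, macrophage, monocyte) or 15 (endothelial) and at least 2 markers. A cell in the range of a further main gate was left out (64 WT and 53 KO cells). Doublets were left in, and Scrublet in scanpy 1.11.5 marked 114 and 50. The gate values were set on these data, and the members, gene lists and tests were chosen with earlier results of these data known.

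Thinning drew 2000 UMIs per cell without replacement. It left out 136 WT and 116 KO melanoma, 386 and 309 macrophage, 31 and 39 fibroblast and 21 and 8 endothelial cells. Shares have exact Clopper-Pearson intervals, share ratios Katz intervals, and count ratios exact conditional intervals, each at 95% and for counting error only. Ratios between genotypes were named by a fixed size of 0.5 on the log2 scale among genes with at least 100 UMIs. Gates were compared by edgeR 4.0.16 (quasi-likelihood, TMM, library as a term, Benjamini-Hochberg over all genes tested) on UMIs summed per gate and library, with DESeq2 1.42.0 as an alternative. The comparisons were tested on simulated data: a fold of 2 was recovered for 80.2% of changed genes in the macrophage, 73% in the fibroblast and 72% in the endothelial comparison, run on 12244, 12849 and 12012 genes. The changed genes were drawn only from those with ample expected UMIs in every sum. The recovery rates therefore do not describe members with few UMIs, such as those of the endothelial gate. In the macrophage simulation 7.11% of calls were false, above the 5% aimed at.

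Values are given for Mcm2 to Mcm7, Pcna, Ccne1, Ccne2, E2f1 and E2f8, for members past 0.5 and for the 3 smallest and largest folds of each comparison. A few others are named for contrast after their values were seen.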

Additional observations from a re-analysis of the deposited data

How the results depend on the processing

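The 21 main values were recomputed 138 times in all: 114 were classed as the same, 22 as moved and 2 as weaker. No direction turned among the ratios and folds, while the counts of members have no direction to turn. All 85 KO to WT ratios, main values included, were below 0. In melanoma the share ratio was -0.46 at 1000 and -0.17 at 4000 UMIs per cell, and -0.23 and -0.48 with at least 2 and 5 UMIs of the 36 genes. The melanoma sum was at -0.38 once genes of mitochondria and of ribosomal proteins were removed, and -0.43 with TMM, which shifted KO against WT by 0.03 there and by 0.14 in the endothelial gate. The fibroblast sum was at -0.50 with a gate without collagens, -0.53 in Xist cells and -0.068163 in Y-linked KO cells, and the macrophage sum at -0.28 with each cell weighted equally, -0.87 in Xist cells and -0.28 in Y-linked KO cells. The comparison with Y-linked cells was chosen after seeing the data. Members past -0.5 numbered 15 in macrophages and 7 in fibroblasts with a minimum of 20 UMIs. In fibroblasts they numbered 1 with the gate at 2 times its value, and 0 without collagens, where too few cells were left for any member to reach the minimum. With at least 3 UMIs for a high cell the replication folds were 1.09 (WT) and 1.30 (KO) and the mitosis folds 0.82 and 1.09. With melanoma RNA subtracted from the host gate, the melanoma fold of the sum was 1.68 over macrophages and 1.75 over fibroblasts, where the uncorrected values were 1.41 and 1.53. With 1 library left out, where no test remains, it ranged from 1.41383 to 1.41468 over macrophages, 1.49 to 1.57 over fibroblasts and 1.05 to 1.40 over endothelial cells. DESeq2 called 19 members against fibroblasts and 5 against endothelial cells. The numbers of called members without the replicate block (the library term, which pairs gates of the same tumours) were 25 against macrophages, 28 against fibroblasts and 18 against endothelial cells. The causes of these shifts were not tested. The endothelial values rest on 72 and 26 cells and 516 UMIs of the 36 genes in all.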
